A study of Homo sapiens with 9 samples.

Results

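The enzymes that build cholesterol and fatty acids, with the factors that control their genes, were followed in HEK293 cells, an established line of human embryonic kidney origin, after siRNA transfection. The genes were 31 named targets and regulators of the SREBP pathway, grouped by function and chosen with earlier results of these data known. A gene was taken as measured where a probe set carried its symbol and no other symbol. This held for 26 of the 31 genes, each with 1 probe set, among 22011 probe sets in all: 14 of 18 sterol synthesis genes, 4 of 5 regulators and transfer proteins, and 8 of 8 fatty acid genes. ACAT2, CYP51A1, HSD17B7 and SREBF2 were listed only beside other symbols and, with FDFT1, were not analysed here. Cells grown in DMEM with serum received control siRNA (siCTR), siRNA against DBC1 (siDBC1) or siRNA against ZNF326, also called ZIRD (siZNF326), and RNA was taken at 48 h. CCAR2 encodes DBC1, which together with ZNF326 forms the DBIRD complex, a link between RNA polymerase and splicing. Each group held 3 arrays from independent experiments, 9 in all, of 1 cell line. Each siRNA was set against siCTR to ask which transcripts differ when a subunit is targeted.

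Sterols and fatty acids are both made from cytosolic acetyl-CoA. The sterol branch runs through mevalonate and isoprenoid units to squalene, lanosterol and cholesterol, and the fatty acid branch through malonyl-CoA to palmitate and its elongated and desaturated products. The genes of both branches are activated by SREBP factors, which SCAP carries from the endoplasmic reticulum to the Golgi for cleavage when membrane sterol is low, and which INSIG proteins hold back when sterol is plentiful. SREBP-2, the product of SREBF2, acts mainly on sterol genes, and SREBP-1, the product of SREBF1, mainly on fatty acid genes.

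The promoters show the letters these genes share beyond the pathway. SREBP binds sterol regulatory elements and works beside NF-Y, the factor that binds CCAAT boxes. RefSeq windows from 250 bases before to 50 bases after a gene's start were searched on both strands for CCAAT and for TCACNCCAC, a strict form of the sterol regulatory element. CCAAT was present in a window of 13 of the 15 sterol genes with a window, 5 of 7 fatty acid genes and 3 of 5 regulators, against 39.7% of all 27305 genes and 34.6% of all windows. TCACNCCAC was present in SREBF2 alone among these genes, against 1.39% of all genes. The 200 bases before the farthest upstream start are shown for 5 genes and for SREBF2, which holds both motifs. The 5 were picked from the 13 lipid genes whose siZNF326 arrays all lay above siCTR, and each holds CCAAT. Others of the 13 varied: TM7SF2 had 1 match in its window, ELOVL6 had 0 and SQLE had no window. HMGCS1, IDI1, DHCR7, ACSS2 and FADS2 each had a window with 0 matches beside another with matches. The 5 shown therefore do not stand for the 13. Of the genes with differences near 0, MVD and FDPS had 3 matches each and PMVK had 0. A link between CCAAT and the differences was not tested. Capitals mark matches on either strand (ATTGG is CCAAT on the other strand), and the run CCAATTGG in NSDHL is 2 overlapping matches. Positions are on GRCh38.p14, each sequence 5′ to 3′ on the gene's strand: HMGCS1 at chr5:43313413-43313612 (minus), LSS at chr21:46228775-46228974 (minus), MSMO1 at chr4:165327469-165327668 (plus), NSDHL at chrX:152830863-152831062 (plus), INSIG1 at chr7:155297678-155297877 (plus) and SREBF2 at chr22:41832905-41833104 (plus).
HMGCS1: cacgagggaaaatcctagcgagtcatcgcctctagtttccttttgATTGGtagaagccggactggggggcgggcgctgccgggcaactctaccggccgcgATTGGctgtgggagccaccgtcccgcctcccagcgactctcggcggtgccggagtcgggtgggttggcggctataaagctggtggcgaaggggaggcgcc
LSS: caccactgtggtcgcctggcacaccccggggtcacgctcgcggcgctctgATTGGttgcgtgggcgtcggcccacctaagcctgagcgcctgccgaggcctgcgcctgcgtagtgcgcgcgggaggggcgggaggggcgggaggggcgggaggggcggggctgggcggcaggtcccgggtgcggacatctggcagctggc
MSMO1: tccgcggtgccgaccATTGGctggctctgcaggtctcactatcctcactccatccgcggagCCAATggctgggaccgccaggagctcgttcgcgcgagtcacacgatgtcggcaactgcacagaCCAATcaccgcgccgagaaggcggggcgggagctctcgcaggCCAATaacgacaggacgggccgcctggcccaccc
NSDHL: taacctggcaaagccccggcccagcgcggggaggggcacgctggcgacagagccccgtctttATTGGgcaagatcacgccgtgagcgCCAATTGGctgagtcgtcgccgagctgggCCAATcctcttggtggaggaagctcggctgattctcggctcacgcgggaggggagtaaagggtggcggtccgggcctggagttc
INSIG1: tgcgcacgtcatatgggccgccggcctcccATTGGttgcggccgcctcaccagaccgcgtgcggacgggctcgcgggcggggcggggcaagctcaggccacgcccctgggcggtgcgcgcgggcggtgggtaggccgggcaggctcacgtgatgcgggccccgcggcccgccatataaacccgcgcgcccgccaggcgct
SREBF2: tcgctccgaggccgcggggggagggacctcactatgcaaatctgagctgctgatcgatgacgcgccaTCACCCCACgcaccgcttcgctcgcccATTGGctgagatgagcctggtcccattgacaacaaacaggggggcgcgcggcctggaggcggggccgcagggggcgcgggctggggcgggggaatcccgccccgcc
A match describes these letters and not a bound site. The INSIG1 and SREBF2 windows also overlap the divergent transcripts INSIG1-DT and SREBF2-AS1.

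The arrays carried features that bear on all values. CCAR2 fell by 1.16 on the log2 scale in siDBC1 (2.24-fold, adjusted p = 0.0116 in limma). ZNF326 did not fall in the arrays labelled siZNF326, where its mean was above siCTR (difference 0.28, adjusted p = 0.851), so siZNF326 below means the label of those arrays. All 26 genes lay above the lower quartile of every array. KRT8, KRT18 and VIM, expressed in HEK293, read 8.37 to 10.85, and the neurofilament genes NEFL, NEFM and INA, also expressed there, 5.46 to 8.83. All 3 neurofilament genes stood apart upward in siZNF326, NEFM by 1.72 (adjusted p = 0.158), INA by 0.95 (adjusted p = 0.220) and NEFL by 0.44 (adjusted p = 0.323). NEFM also stood apart upward in siDBC1, by 0.78 (adjusted p = 0.820), and the part of these genes in the results below was not tested. Of 11 markers of liver, fat, blood and fibroblasts, 5 (ALB, FABP4, PTPRC, CD3D and DCN) lay below the lower quartile on every array. The other 6 did not, among them APOA2 at 4.93 to 5.84 and COL1A1, the highest, at 6.40 to 6.73. The summed linear level of the 11 ran from 293 to 297 in siCTR, 290 to 347 in siDBC1 and 291 to 302 in siZNF326. Single arrays of every group, controls included, took most of the highest or lowest values of the lipid genes. In siCTR replicate 3, 20 of the 26 genes had their highest value of the group, against 54.1% of all probe sets. In siDBC1 replicate 2, 22 of the 26 genes had their lowest value of the group, and in replicate 3, 21 had their highest, against 54.0% and 53.7% of all probe sets. In siZNF326 replicate 1, 21 of the 26 had their highest value, and in replicate 3, 20 had their lowest, against 49.7% and 37.1% of all probe sets. The part of these arrays in the differences below was not tested. In RNA from whole cultures, fewer cells expressing a gene and less RNA per cell cannot be told apart.

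In the arrays labelled siZNF326 most sterol genes lay above siCTR, without passing the test. Of 14 sterol genes 12 were above siCTR, where 56.6% of all probe sets were and where quantile normalization or centring left 11, with a median difference of 0.34 on the log2 scale (1.27-fold), and 8 had all 3 arrays above all 3 siCTR arrays. Those 8 were HMGCS1, IDI1, SQLE, LSS, TM7SF2, MSMO1, NSDHL and DHCR7. Of all 26 lipid genes 13 stood apart upward and 1 downward, against 12.9% and 5.27% of all probe sets. No lipid gene passed at an adjusted p below 0.05 over all probe sets in limma, where 0.15% of probe sets did. At an unadjusted p below 0.05, 9 of the 26 were higher and 0 lower, against 6.13% and 2.52% of all probe sets. The median difference was 0.03 over all probe sets and 0.09 over the 11006 with the highest means, which hold all 26 genes. The shares above cover all probe sets, low ones included. After quantile normalization of the arrays FADS2 alone among the 26 passed (difference 0.52, adjusted p = 0.0370).

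In the mevalonate arm, the differences were large at some steps and near 0 at others. HMGCS1, which makes HMG-CoA, the precursor of mevalonate, read 7.77, 7.67 and 7.69 in siCTR, 8.12, 7.39 and 8.55 in siDBC1 and 8.96, 8.59 and 8.40 in siZNF326. The 3 siZNF326 arrays were the highest except for siDBC1 replicate 3, which lay between them. Its difference between siZNF326 (8.65 ± 0.29, SD, n = 3) and siCTR (7.71 ± 0.052) was 0.95 (SE 0.28, 95% interval 0.30 to 1.59, adjusted p = 0.358), a 1.93-fold ratio. IDI1, which converts between the 2 isoprenoid building blocks, read 7.02, 7.06 and 7.10 in siCTR, 7.36, 7.03 and 7.83 in siDBC1 and 8.34, 7.61 and 7.52 in siZNF326. Its siZNF326 arrays lay above all siCTR arrays and spread widely, and the difference was 0.77 (SE 0.26, 95% interval 0.17 to 1.37, adjusted p = 0.436), or 0.51 without siZNF326 replicate 1. MVK, mevalonate kinase, differed by 0.26 (0.17 after quantile normalization), with overlapping arrays. PMVK and MVD, the next kinase and the decarboxylase, and FDPS, which makes farnesyl diphosphate, differed by 0.04, −0.02 and −0.01. Their 95% intervals all lay between −0.24 and 0.23, so that changes in signal the size of the HMGCS1 difference lie outside them. PMVK and FDPS each read the same value on 3 arrays and MVD on 2, as LSS and TM7SF2 also did on 2. How closely these probe sets follow their transcripts was not tested.

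The enzymes that turn squalene into lanosterol both stood apart upward in siZNF326. SQLE, the epoxidase that is a control point of the pathway, read 8.28, 8.13 and 8.30 in siCTR, 8.41, 7.86 and 8.86 in siDBC1 and 9.15, 8.71 and 8.67 in siZNF326. Its siZNF326 arrays lay above siCTR, by 0.61 on average (SE 0.25, adjusted p = 0.554), while its siDBC1 arrays fell on both sides of siCTR. LSS, the cyclase that makes lanosterol, read 7.24, 7.33 and 7.33 in siCTR, 7.11, 6.91 and 7.17 in siDBC1 and 7.79, 7.63 and 7.57 in siZNF326. None of its groups overlapped: siDBC1 was the lowest, siCTR lay between, and siZNF326 was the highest. The difference from siCTR was 0.36 in siZNF326 (SE 0.096, adjusted p = 0.311) and −0.24 in siDBC1 (SE 0.096, adjusted p = 0.783). The former was 0.22 after quantile normalization.

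Of the enzymes from lanosterol to cholesterol, those of the demethylation and reduction steps stood apart in siZNF326. MSMO1, the methyl sterol oxidase, read 7.50, 7.35 and 7.38 in siCTR, 7.82, 7.21 and 8.49 in siDBC1 and 8.56, 8.14 and 7.89 in siZNF326. NSDHL, the dehydrogenase that acts with it, read 7.31, 7.27 and 7.67 in siCTR, 7.84, 7.66 and 8.20 in siDBC1 and 8.34, 7.91 and 7.83 in siZNF326. In both genes siDBC1 replicate 3 and siZNF326 replicate 1 were the highest arrays of their groups. The differences between siZNF326 and siCTR were 0.79 for MSMO1 (SE 0.31, adjusted p = 0.529) and 0.62 for NSDHL (SE 0.19, adjusted p = 0.400). TM7SF2, a sterol reductase, read 7.22, 7.31 and 7.44 in siCTR, 7.51, 7.49 and 7.49 in siDBC1 and 7.64, 7.55 and 7.56 in siZNF326. Its 3 groups did not overlap and lay in that order, with differences from siCTR of 0.17 (SE 0.077, adjusted p = 0.842) and 0.26 (SE 0.077, adjusted p = 0.369). The latter was 0.11 after quantile normalization and 0.17 with centred arrays. DHCR7, the reductase of the last step in one route, differed by 0.37 in siZNF326, EBP, the sterol isomerase, by 0.32 and SC5D, the desaturase, by 0.21, with adjusted p from 0.630 to 0.864. Quantile normalization gave 0.19 for EBP, and without siZNF326 replicate 1 SC5D differed by 0.01.

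**Figure D1:**
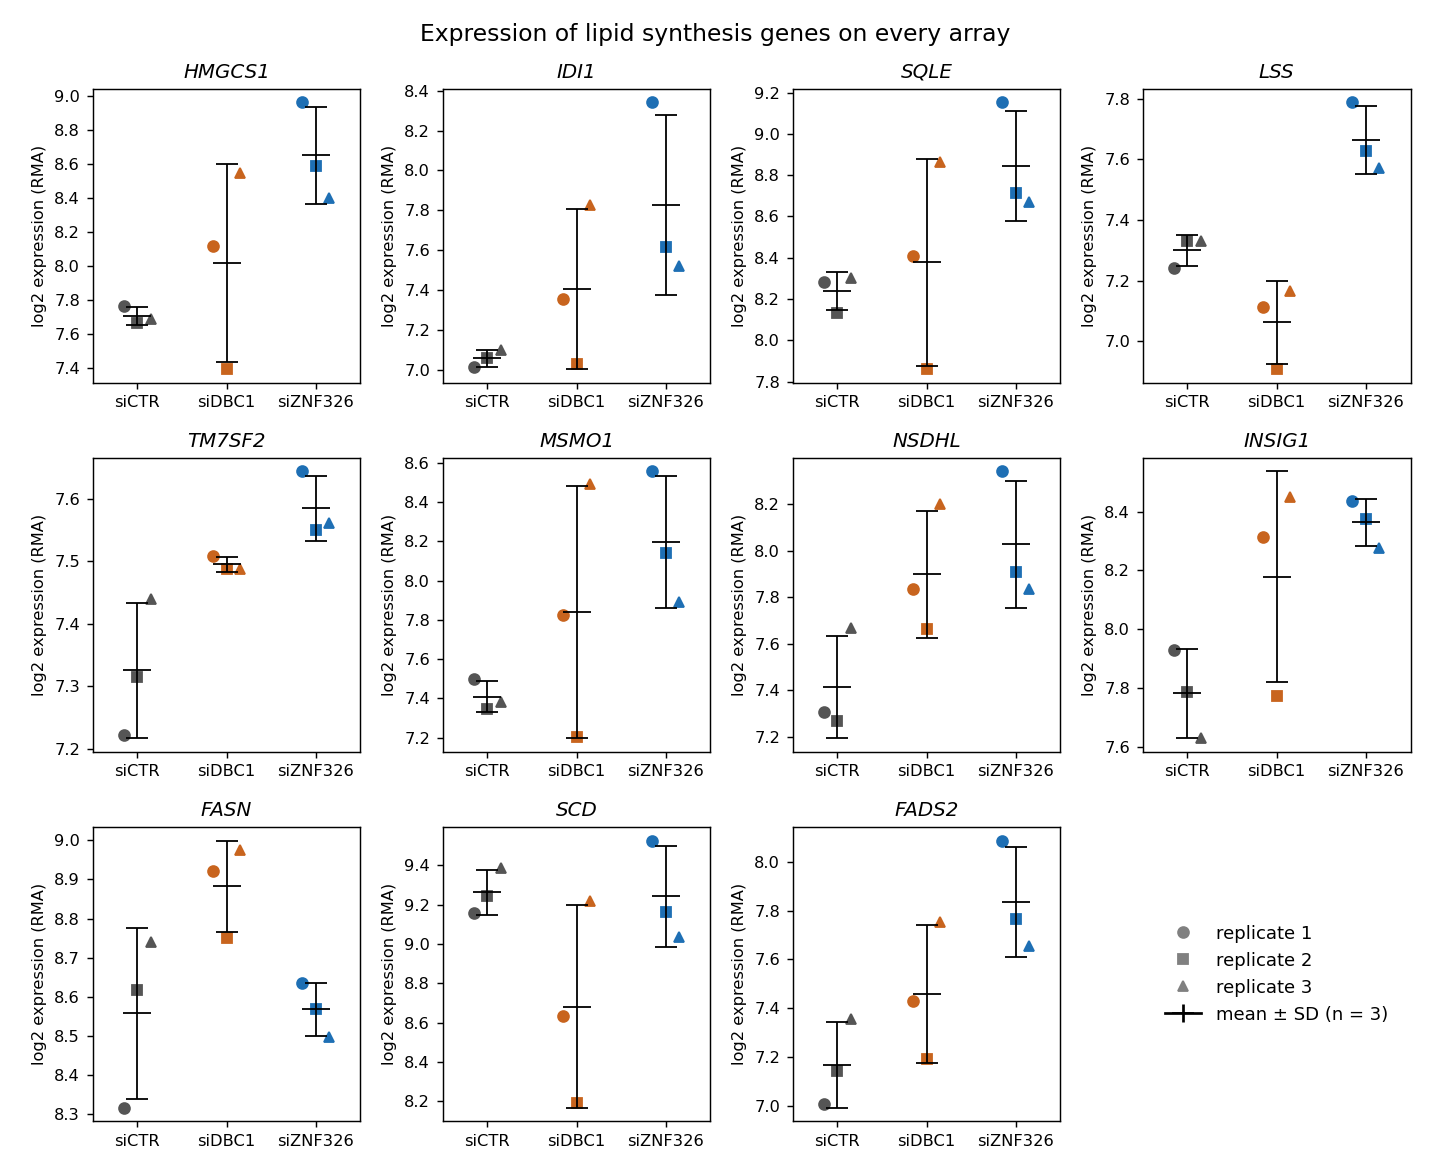
Log2 expression (RMA) of the 11 lipid genes with an unadjusted p below 0.05 against siCTR in siDBC1 or siZNF326; each symbol is 1 array, its shape the replicate number, and the bars are the mean ± SD of 3 arrays. The siZNF326 arrays of HMGCS1 read 8.40 to 8.96, above the siCTR arrays at 7.67 to 7.77, and siDBC1 replicate 2 (squares) is the lowest siDBC1 array for most of these genes.

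Among the regulators, INSIG1, which retains SCAP and is itself a target of SREBP, lay above siCTR like most enzymes. SREBF1, the gene of SREBP-1, and SCAP, the gene of the carrier, lay at or below siCTR. SREBF2, the gene of the factor that acts mainly on sterol genes, was not analysed. INSIG1 read 7.93, 7.79 and 7.63 in siCTR, 8.31, 7.77 and 8.45 in siDBC1 and 8.44, 8.38 and 8.28 in siZNF326. Its siZNF326 arrays were close together and above all siCTR arrays, with a difference of 0.58 (SE 0.18, 95% interval 0.17 to 0.99, adjusted p = 0.373). SCAP differed from siCTR by −0.02 in siZNF326 and 0.00 in siDBC1, with 95% intervals between −0.19 and 0.17. SREBF1 read 6.64, 6.64 and 6.83 in siCTR, 6.64, 6.67 and 6.65 in siDBC1 and 6.58, 6.59 and 6.48 in siZNF326. It was the 1 lipid gene whose siZNF326 arrays all lay below siCTR, by 0.15 on average (95% interval −0.33 to 0.03, adjusted p = 0.647). The difference was −0.28 after quantile normalization and −0.09 without siCTR replicate 3. STARD4, which carries sterol between membranes, read 7.41, 7.28 and 7.36 in siCTR, 7.35, 6.59 and 7.46 in siDBC1 and 8.00, 7.69 and 7.72 in siZNF326, a difference of 0.45 (adjusted p = 0.617).

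Fatty acid genes in siZNF326 ranged from differences near 0 to differences close to those of the sterol genes. Of the 8, 7 were above siCTR (5 after quantile normalization or centring) with a median of 0.21 (1.16-fold), 3 had arrays that stood apart upward (FADS2, ELOVL6 and ACSS2), and 3 differed by at most 0.03 (FASN, SCD and FADS1). FADS2, the desaturase of the entry step to long polyunsaturated fatty acids, read 7.01, 7.14 and 7.36 in siCTR, 7.43, 7.19 and 7.75 in siDBC1 and 8.09, 7.76 and 7.65 in siZNF326. Its siZNF326 arrays lay above siCTR by 0.67 (SE 0.18, 95% interval 0.26 to 1.08, adjusted p = 0.311), a 1.59-fold ratio. ELOVL6, which elongates palmitate, differed by 0.64 (95% interval −0.14 to 1.42), and ACSS2, which makes acetyl-CoA from acetate, by 0.28. The ACSS2 groups stood apart only narrowly: the lowest siZNF326 array read 6.199 and the highest siCTR array 6.190. ACACA, the carboxylase that makes malonyl-CoA, differed by 0.38 and ACLY, which makes acetyl-CoA from citrate, by 0.15, both with overlapping arrays. Without siZNF326 replicate 1 these were 0.20 and 0.05, and after quantile normalization ACACA was at 0.22 and ACSS2 at 0.16. FADS1, the partner desaturase next to FADS2 in the genome, differed by 0.03 (95% interval −0.29 to 0.36).

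FASN and SCD, the synthase that makes palmitate and the desaturase that makes oleate, lay on opposite sides of siCTR in siDBC1 and close to it in siZNF326. FASN read 8.32, 8.62 and 8.74 in siCTR, 8.92, 8.75 and 8.98 in siDBC1 and 8.63, 8.57 and 8.50 in siZNF326. Its siDBC1 arrays were above all others, by 0.32 over siCTR (SE 0.12, adjusted p = 0.754), or 0.20 without siCTR replicate 1. SCD read 9.16, 9.24 and 9.39 in siCTR, 8.64, 8.19 and 9.22 in siDBC1 and 9.53, 9.16 and 9.03 in siZNF326. Its siDBC1 replicate 3 lay among the siCTR arrays and the other two below them, a mean difference of −0.58 (SE 0.25, adjusted p = 0.806), or −0.34 without siDBC1 replicate 2. In siZNF326 the differences were 0.01 for FASN (95% interval −0.27 to 0.29) and −0.02 for SCD (95% interval −0.60 to 0.56).

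In siDBC1 lipid genes lay on both sides of siCTR. Of the 14 sterol genes 9 were above siCTR, with a median of 0.15, and of the 8 fatty acid genes 5, with a median of 0.13, beside 53.8% of all probe sets above and a median of 0.01. No lipid gene passed at an adjusted p below 0.05 in limma, where 0.0363% of probe sets did. At an unadjusted p below 0.05 there were 4 of 26, with NSDHL (0.49) and FASN higher and LSS and SCD lower, against 6.18% of all probe sets (3.63% higher and 2.55% lower). That count was 0 without siCTR replicate 1, 1 without siCTR replicate 2 or siDBC1 replicate 1, and 8 without siDBC1 replicate 2. It was 10 after quantile normalization and 7 with centred arrays. Arrays stood apart upward for TM7SF2 and FASN and downward for LSS, against 5.18% and 3.66% of all probe sets. The spread was larger than in the controls: the median SD of the 26 genes was 0.29 in siDBC1, 0.10 in siCTR and 0.17 in siZNF326, beside 0.23, 0.13 and 0.16 over all probe sets. Without siDBC1 replicate 2 the medians were 0.29 for sterol and 0.34 for fatty acid genes, and without replicate 3 they were 0.03 and −0.14, so that the fatty acid median changed sign with that array. The differences of SQLE, EBP, ACACA and ELOVL6, 0.10 to 0.15 with all arrays, turned to between −0.20 and −0.07 without replicate 3. HMGCS1 in siDBC1 ranged from 0.05 without replicate 3 to 0.63 without replicate 2, and MSMO1 from 0.11 to 0.75.

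**Figure D2:**
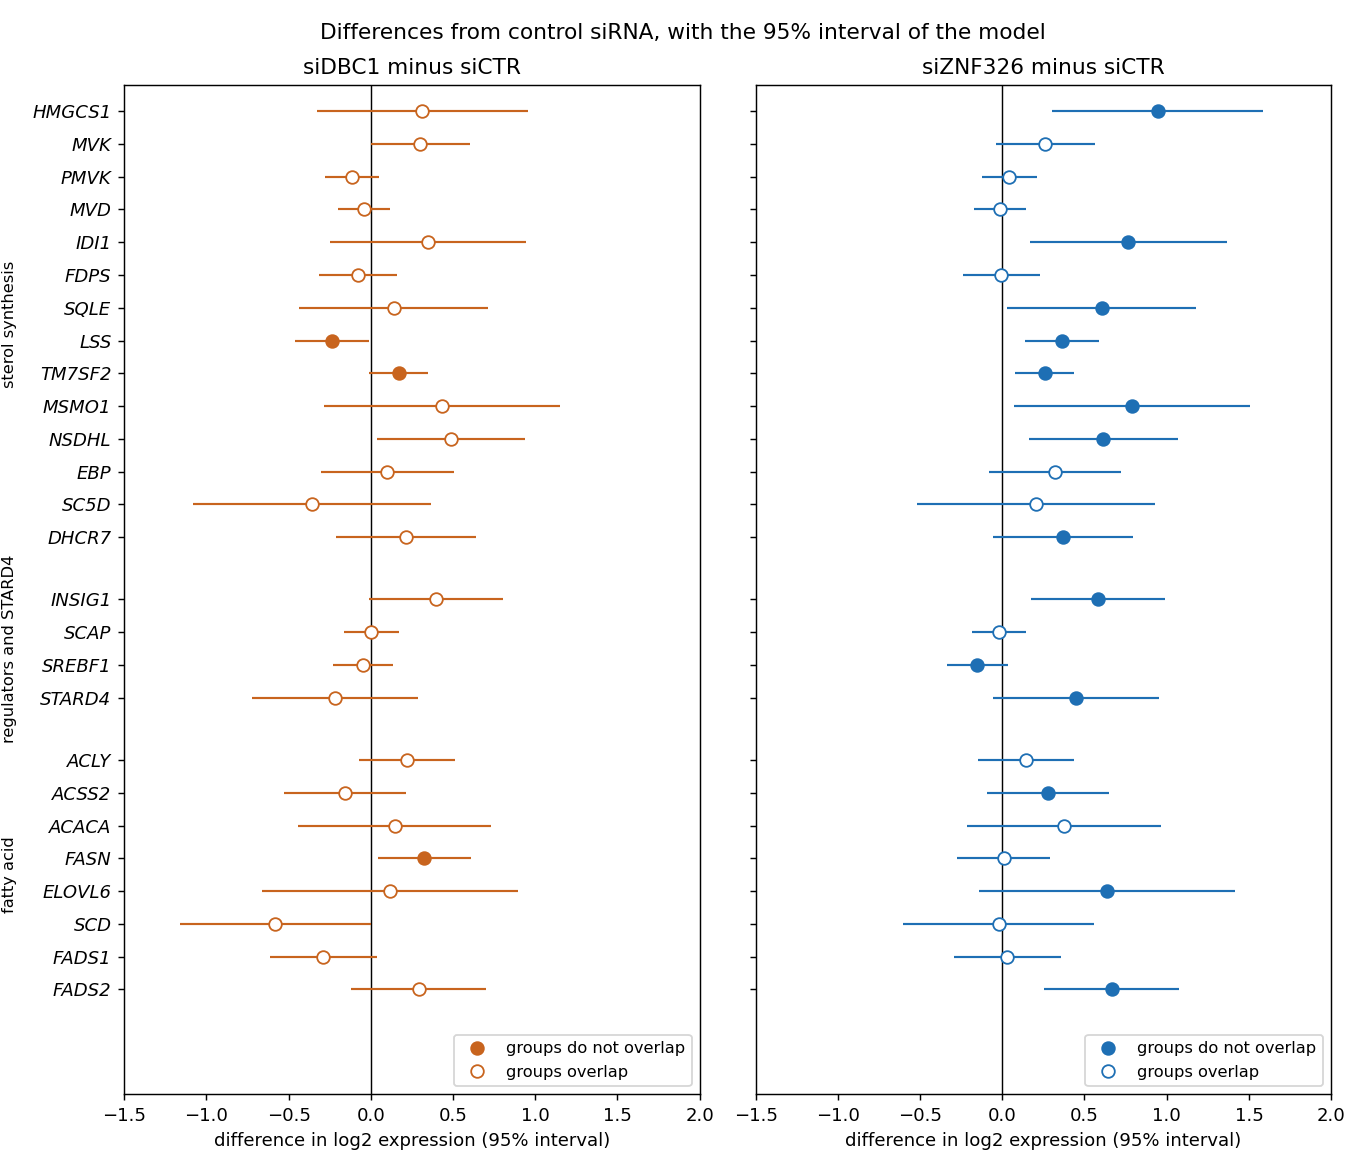
Difference in log2 expression from siCTR for each of the 26 lipid genes in siDBC1 (left) and siZNF326 (right), with the 95% interval of the limma fit; filled points mark genes whose 3 arrays do not overlap the 3 siCTR arrays. In siZNF326 the filled points include 13 to the right of 0, with HMGCS1 the farthest at 0.95, and 1 to the left (SREBF1), and in siDBC1 there are 3 filled points.

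Sterol and fatty acid genes were compared by the median distance of their members from the siCTR mean on each array. In siZNF326 the sterol median was 0.55, 0.29 and 0.25 in replicates 1 to 3 and the fatty acid median 0.40, 0.17 and 0.05, so that sterol genes were the farther on each of the 3 arrays, by 0.15, 0.12 and 0.21. On the siCTR arrays the same gap ran from −0.10 to 0.07. That mean includes each siCTR array, so the siCTR gaps are kept small by construction. The siZNF326 gaps all share that mean and are not independent of one another. In siDBC1 the sterol medians were 0.17, −0.18 and 0.47 and the fatty acid medians 0.19, −0.40 and 0.40, with gaps of −0.01, 0.23 and 0.07. The medians over all probe sets stayed between −0.06 and 0.09 on these 9 arrays. The sterol median of all arrays together exceeded that of fatty acid genes by 0.13 in siZNF326 and by 0.02 in siDBC1. These gaps are descriptions of chosen lists and carry no test. The gap in siZNF326 was 0.06 after quantile normalization, where the sterol median was 0.20 and the fatty acid median 0.14. Without siZNF326 replicate 1 the medians were 0.24 and 0.12.

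**Figure D3:**
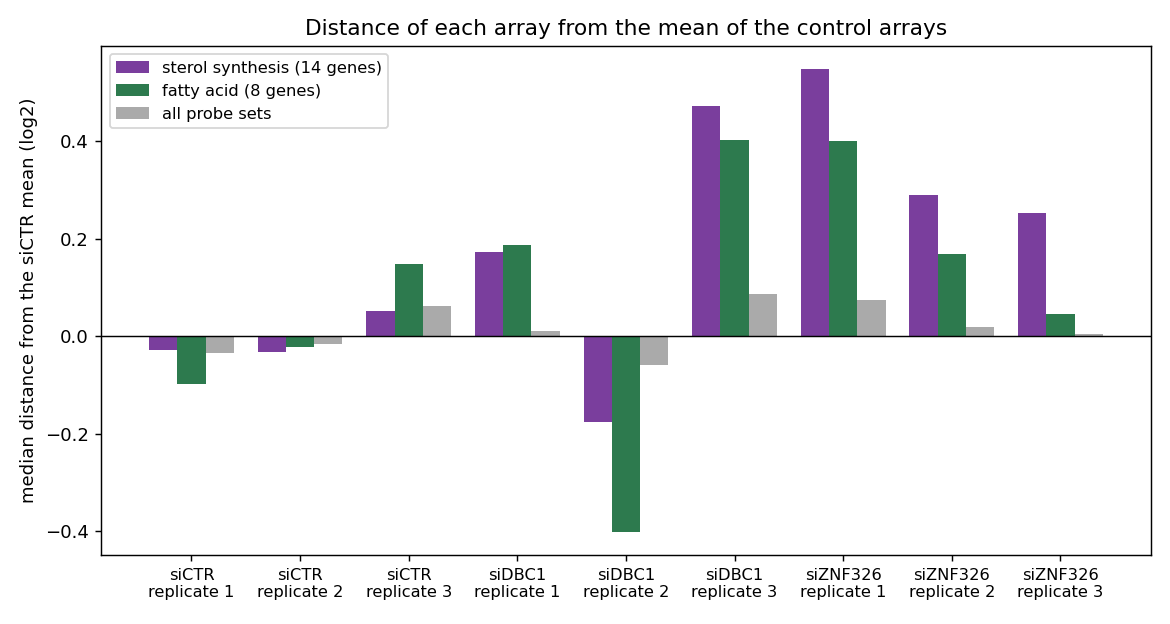
Median distance from the siCTR mean (log2) of the 14 sterol synthesis genes, the 8 fatty acid genes and all probe sets, as bars for each of the 9 arrays. Both lipid lists lie below 0 in siDBC1 replicate 2 (−0.18 and −0.40) and highest in siDBC1 replicate 3 and siZNF326 replicate 1, and the bars of all probe sets stay within −0.06 to 0.09.

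Set directly against siDBC1, the siZNF326 arrays were higher for 13 of 14 sterol genes (median 0.19) and 6 of 8 fatty acid genes (median 0.35). Over all probe sets 55.4% were higher. After quantile normalization 9 sterol genes were higher (median 0.06). The median difference was 0.02 over all probe sets and 0.08 over the 11006 with the highest means, which hold all 26 genes. None of the 26 passed at an adjusted p below 0.05 in limma, where 0.00909% of probe sets did, and 4 had an unadjusted p below 0.05 (3 higher and 1 lower), against 7.31% of all probe sets (4.88% higher and 2.43% lower). That count was 14 without siDBC1 replicate 3 and 2 without siZNF326 replicate 1 or 2. It was 9 after quantile normalization and 8 with centred arrays. Without siDBC1 replicate 2 the medians were 0.09 for sterol and 0.17 for fatty acid genes, and without siDBC1 replicate 3 the sterol median was 0.35. The smallest p was that of LSS, with a difference of 0.60 (SE 0.096, 95% interval 0.38 to 0.82, adjusted p = 0.249) and arrays that did not overlap. STARD4 differed by 0.67 (adjusted p = 0.645) and ACSS2 by 0.43 (adjusted p = 0.657), both with siZNF326 above all siDBC1 arrays, and FASN by −0.31 (adjusted p = 0.666) with siZNF326 below. For ACSS2 the nearest arrays read 6.199 in siZNF326 and 6.190 in siDBC1. Arrays stood apart upward for 5 of the 26 genes and downward for 2, against 5.21% and 4.24% of all probe sets. Fatty acid genes had the larger median here, the reverse of the order against siCTR, and SCD (0.56) and FADS1 (0.32), which lay low in siDBC1, were among them. Without siDBC1 replicate 2 the differences were 0.40 for STARD4, 0.27 for ACSS2, 0.32 for SCD and 0.19 for FADS1, and FADS1 was at 0.18 after quantile normalization. Both comparisons with siCTR use the same control arrays, and the siDBC1 arrays enter this one.

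Genes that process SREBP, move sterol or belong to neighbouring lipid reactions were described from a separate list of 38, of which 26 had a probe set of their own. None passed at an adjusted p below 0.05 over all probe sets in limma against siCTR in either siRNA group, where 0.15% of probe sets passed in siZNF326 and 0.0363% in siDBC1. In siZNF326 20 of the 26 were above siCTR, with a median of 0.14, beside 56.6% of all probe sets. In siDBC1 14 were above, with a median of 0.02, beside 53.8% of all probe sets. At an unadjusted p below 0.05, 2 were higher and 1 lower in siZNF326, against 6.13% and 2.52% of all probe sets, and 3 were higher and 0 lower in siDBC1, against 3.63% and 2.55%. Arrays stood apart upward for 8 of the 26 and downward for 2 in siZNF326, against 12.9% and 5.27% of all probe sets. In siDBC1 they did so for 4 and 0, against 5.18% and 3.66%. ABCA1, which exports cholesterol from the cell, read 4.21, 4.55 and 4.68 in siCTR, 4.71, 4.70 and 4.93 in siDBC1 and 5.51, 5.06 and 5.00 in siZNF326. Its 3 groups did not overlap and lay in that order, with differences from siCTR of 0.30 (adjusted p = 0.925) and 0.71 (SE 0.17, adjusted p = 0.258). These are low values: in siCTR they lay close to the lower quartile of the arrays (4.10 to 4.12) and below the liver marker APOA2. SCARB1, a receptor for high-density lipoprotein, was above siCTR by 0.35 in siDBC1 (adjusted p = 0.573) and 0.29 in siZNF326 (adjusted p = 0.457), with arrays apart in both. SLC25A1, the carrier that brings citrate out of mitochondria, was lower in siZNF326 by 0.26 (adjusted p = 0.493). ACSL4, which activates polyunsaturated fatty acids, and ELOVL1, which elongates saturated ones, were above siCTR in siDBC1 by 0.90 and 0.44 (adjusted p = 0.707 and 0.736). In siZNF326 they were above by 0.56 and 0.36 (adjusted p = 0.655 and 0.591), with the arrays of ACSL4 apart and those of ELOVL1 overlapping. INSIG2, the relative of INSIG1, differed by −0.25 in siZNF326 and −0.13 in siDBC1, and MBTPS1, the first protease that cleaves SREBP, by 0.12 and −0.18.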

How the data were processed

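Values were taken as deposited: log2 expression values made by the authors with RMA, per the submitters' processing notes, which also name build hg18. RMA corrects background, equalizes arrays and summarizes probes, so differences between whole arrays are partly removed. Its version and any filter: not given in the sources used here. The annotation gave 1 gene symbol to 14432 of 22011 probe sets, more than 1 to 2408 and no symbol to 5171; the symbols of the 26 genes matched a current gene table through gene identifiers. limma 3.58.1 (lmFit, eBayes) in R 4.3.3 fitted the 3 group means to all probe sets and 9 arrays, with two-sided tests adjusted by Benjamini and Hochberg over all probe sets and a call at adjusted p below 0.05; the fit was tested on simulated data. Differences are on the log2 scale, with the model's SE. The number of arrays limits the precision. The genes and lists were chosen with earlier results of these data known, so counts over them are not independent evidence. Arrays are given for genes with an unadjusted p below 0.05 in siDBC1 or siZNF326 against siCTR and for the largest difference per class; SREBF1, STARD4 and other details were chosen after their values were seen. Promoter sequences are RefSeq's, GRCh38.p14. Alternatives were quantile normalization, median centring, a replicate block, fits of 2 groups, the 11006 probe sets with the highest means, an intensity trend and leaving out each array.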

Additional observations from a re-analysis of the deposited data

How the results depend on the processing

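No lipid gene passed at an adjusted p below 0.05 in limma in any comparison under any of the 15 alternatives, except FADS2 in siZNF326 against siCTR after quantile normalization (1 gene called, difference 0.52). That setting also moved the sterol median there to 0.20 and its gap to fatty acid genes to 0.063. Leaving out 1 array at a time gave a sterol median in siZNF326 of 0.24 to 0.41, a fatty acid median of 0.12 to 0.30 and a gap of 0.09 to 0.13. In siDBC1 these were 0.03 to 0.29, −0.14 to 0.34 and −0.045 to 0.16. Deviations from the group means correlated from −0.30 to 0.40 between same-numbered arrays and from −0.57 to 0.61 between differently numbered ones. The highest was that of siDBC1 replicate 3 with siZNF326 replicate 1. With 3 arrays per group, these values cannot show whether the numbers pair arrays. With the replicate block 0 lipid genes were called in each comparison, and 2, 11 and 3 had an unadjusted p below 0.05, against 4, 9 and 4 without it (siDBC1 and siZNF326 against siCTR, then siZNF326 against siDBC1). Over all probe sets, in the same order, limma called 8, 33 and 2, 69, 196 and 28 after quantile normalization, 46, 119 and 9 with centred arrays, 0, 1 and 0 with the block, 0, 5 and 0 with only the groups compared, 9, 68 and 2 in the 11006 probe sets with the highest means, and 4, 35 and 2 with the trend. Without 1 array the ranges were 0 to 4, 1 to 64 and 0 to 1. Under quantile normalization or centring 11 of 14 sterol and 5 of 8 fatty acid genes lay above siCTR in siZNF326, against 12 and 7. All 26 genes passed the filter on low values, and each had 1 probe set, so taking every probe set gave the same lists. The cause of these shifts was not tested.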
